A study of Mus musculus with 8 samples.

Results

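The endoplasmic reticulum (ER) folding and unfolded protein response module is a set of 34 genes that build, guard and signal from the folding compartment of the secretory pathway. The 34 genes were taken by name from the 20887 genes that array probes could be matched to, and were chosen with earlier results of these data known. They comprise 11 chaperones and co-chaperones, 4 protein disulfide isomerases, 3 stress sensors, 4 genes of the downstream transcription factors and the pseudokinase Trib3, 8 genes of ER-associated degradation (ERAD, the disposal of misfolded proteins) and 4 genes of the translocon, the channel through which new proteins enter the ER. All 34 had a probe well above background on all 8 arrays and all 34 were tested, among 12706 genes tested in all.

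Secreted and membrane proteins are folded in the ER with the help of chaperones, and a load beyond what these can handle is sensed by the membrane proteins IRE1 alpha (Ern1), PERK (Eif2ak3) and ATF6. IRE1 alpha splices the mRNA of Xbp1 into the form that encodes an active factor, PERK slows translation while raising that of ATF4, and ATF6 is cleaved into a transcription factor, and together these raise chaperones, ERAD genes and, under prolonged stress, Ddit3. Dendritic cells load antigen onto MHC molecules that are themselves folded in this compartment, with Calr, Canx and Pdia3 among the helpers, and IRE1 alpha and Xbp1 are known to matter for dendritic cell survival.

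The study measured total RNA of mouse dendritic cells grown from bone marrow of C57BL/6 females. Immature cells were monocytes kept for 6 days in GM-CSF at 10 ng/ml with IL-4, and mature cells were such cells given lipopolysaccharide (LPS, a bacterial cell wall component sensed by Toll-like receptor 4) at 50 ng/ml overnight and taken on day 7. Each group had 4 samples, each on its own single-colour Agilent array, and all cells of both groups carried the same cytokines. No sample of cells held to day 7 without LPS was analysed here, so LPS and the further night in culture cannot be told apart, and the labels do not say whether the replicates are separate animals or cultures, so the p-values measure only the spread between these samples, which may be technical.

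Each array held 59305 spots outside the controls, and the share of these called well above background ranged from 47.7% to 51.3% in immature and from 47.5% to 48.4% in LPS samples. The array positions put all 8 on 1 slide, with immature samples in row 1 and LPS samples in row 2, so slide row and treatment cannot be told apart. Immature replicate 3 stood apart from the other immature arrays: the spread of its log2 differences from them was 0.25 to 0.37, against 0.09 to 0.20 among the other immature arrays. Dendritic cell markers were well above background on all immature arrays for 10 of 10 genes and on all LPS arrays for 9, the exception being Cd209a. Of these 10, 4 rose (Flt3, Zbtb46, Ccr7 and Batf3) and 4 fell (Itgax, Cd209a, H2-Aa and Cd74) by limma. Markers of other cells also moved with the groups. All 10 neutrophil markers fell (limma), with a summed linear signal of 745 to 881 times the array's 75th percentile on immature and 248 to 455 on LPS arrays, and 3 of 5 eosinophil markers fell, from 154 to 194 down to 34.3 to 85.2. Of 9 macrophage markers 2 rose and 4 fell, with sums of 439 to 500 and 602 to 711, and of 7 monocyte markers 2 rose and 4 fell, with sums of 714 to 927 and 601 to 782. Plasma cells, a cell type with a large ER, were checked through 7 markers, of which Sdc1 and Prdm1 rose and Jchain and Tnfrsf17 were not well above background on any array. Irf4 (−0.09) was tested and not called. Mzb1 (−0.72) and Pou2af1 (−0.83), above background on only some arrays of each group, were not tested. The summed signal of these 7 markers was 26.4 to 30.2 on immature and 38.1 to 40.1 on LPS arrays. Irf4 and Sdc1 were the brightest of them, with mean log2 signals of 4.03 and 3.19 on immature and 3.94 and 4.38 on LPS arrays. Irf4 is also among the 10 dendritic cell markers, so the sum does not measure plasma cells alone. The part of these other cells in the results below was not tested, and in bulk samples fewer cells of a type and less RNA per cell cannot be told apart.

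A promoter element recurs among these genes, and its sequence is shown because most of its carriers are chaperones whose values are described below. The ER stress element is CCAAT, 9 bases of any kind and CCACG, bound by ATF6 and NF-Y in cells under ER stress. RefSeq promoters of mouse build GRCm38.p6, from 250 bases before to 50 after each gene's start, were matched for 29 of the 34 genes, and were not matched for Sec61a1, Atf6, Derl1, Hyou1 and Manf. Read on both strands, the element occurred in 9 of the 29 genes (Calr, Canx, Creld2, Dnajc3, Hsp90b1, Hspa5, Pdia6, Derl3 and Syvn1), with 2 copies in Hsp90b1, and in 39 of all 32851 promoters (0.119%). Below are the copies of Hspa5, which encodes the chaperone BiP, of Hsp90b1, Canx and Dnajc3, which fell after LPS, and of Creld2, an ER stress-induced gene, each read on the gene's own strand with the element in capitals and 10 bases on either side; in Creld2 and the second copy of Hsp90b1 it lies in reverse.
Hspa5, chr2:34772015-34772053, plus strand: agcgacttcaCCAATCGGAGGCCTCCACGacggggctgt
Hsp90b1, chr10:86705628-86705666, minus strand: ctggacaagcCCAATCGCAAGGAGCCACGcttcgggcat
Hsp90b1, chr10:86705523-86705561, minus strand: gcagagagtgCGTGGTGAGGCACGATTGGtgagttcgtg
Canx, chr11:50325790-50325828, minus strand: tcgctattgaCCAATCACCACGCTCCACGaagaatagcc
Dnajc3, chr14:118937817-118937855, plus strand: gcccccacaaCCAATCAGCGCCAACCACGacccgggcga
Creld2, chr15:88819510-88819548, plus strand: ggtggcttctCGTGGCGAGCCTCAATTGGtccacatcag

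The second ER stress element, ATTGG, 1 base and CCACG, occurred in 2 of the 29 genes (Dnajb11 and Herpud1) and in 12 of all promoters (0.037%). Herpud1, the ERAD gene that fell most, also held the core of the amino acid response element bound by ATF4 (TGATG, 1 base, AA, then T or C), which occurred in no other of the 29 genes and in 580 of all promoters (1.77%). The unfolded protein response element core TGACGTGG occurred in 222 of all promoters (0.676%) and in 0 of the 29 genes. A match of letters describes the window and does not show that a factor was bound there. The windows of Herpud1 are shown with the second ER stress element and then the reversed ATF4 core in capitals.
Herpud1, chr8:94386367-94386397, plus strand: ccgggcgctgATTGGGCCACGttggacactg
Herpud1, chr8:94386306-94386334, plus strand: accacggcggGTTGCATCAgcccgcaccc

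After LPS the module moved in both directions. Ddit3 and Ern1 rose most, 2.84-fold and 2.12-fold, and Sdf2l1 and Herpud1 fell most, 2.13-fold and 1.84-fold. By limma's moderated test at a Benjamini-Hochberg adjusted p under 0.05 over all tested genes, 6 of the 34 rose (17.6%), where 31.4% of all tested genes rose, and 11 fell (32.4%), where 24.7% of all tested genes fell; 17 did not pass. Chaperones and translocon genes held falls only, the factors with Trib3 rises only, isomerases no call, and sensors and ERAD genes calls in both directions. The LPS and immature arrays did not overlap for 14 of the 34 (41.2%), 7 in each direction, where 52.4% of all tested genes did not overlap. The median log2 difference, LPS minus immature, was −0.17 over the 34 genes, with a range from −1.09 to 1.51, and 0.06 over all tested genes. Values throughout are log2 signals relative to the 75th percentile of their array, and are not comparable between genes, because each probe has its own brightness.

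The balance depended on the scaling and on single arrays. Of the 17 called, 35.3% rose (56.0% over all genes), against 16.7% (38.5% over all genes) under scaling to each array's median and 15.8% (35.3% over all genes) without scaling, settings that lowered the median of all genes by 0.17 and 0.21. They left 3 of the 34 rising in each case, with 15 and 16 falling. Over all tested genes 20.6% and 19.1% then rose, and 32.8% and 35.0% fell. Without immature replicate 3, 7 rose and 16 fell, and the count that fell was 7 without immature replicate 1, 6 without immature replicate 2, 5 without LPS replicate 1 and 7 without LPS replicate 3.

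**Figure D1:**
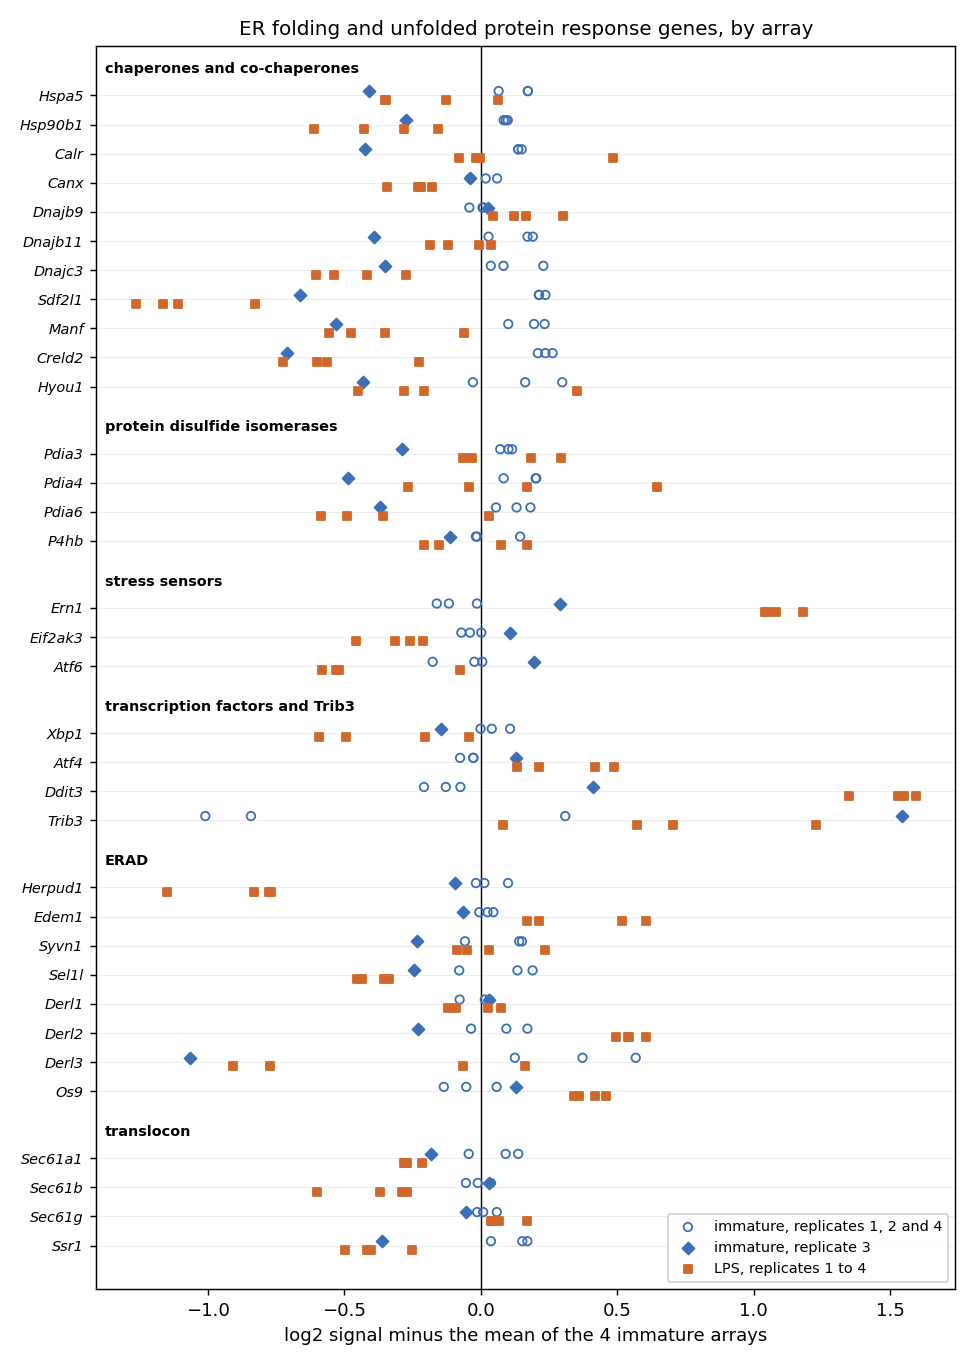
Log2 signal of each of the 34 genes on each array, as the difference from the mean of the 4 immature arrays (x axis, log2 units), grouped by role; open circles are immature replicates 1, 2 and 4, filled diamonds immature replicate 3 and squares the 4 LPS arrays. The squares of Ern1 and Ddit3 lie right of all immature points and those of Sdf2l1 and Herpud1 left of them, and the diamonds lie left of the circles for most chaperones and isomerases.

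The chaperones, which bind unfolded chains and hold them until they fold, fell or did not pass. Of the 11 genes 4 fell (Hsp90b1, Canx, Dnajc3 and Sdf2l1), 0 rose (limma, also 0 at an unadjusted p under 0.05) and 7 did not pass. That is 36.4% falling, where 24.7% of all tested genes fell and 31.4% rose. The median log2 difference was −0.24. Hspa5 encodes BiP, the most general ER chaperone and the keeper of the 3 sensors. Its signal was 6.78, 6.78, 6.20 and 6.67 on the immature arrays and 6.26, 6.48, 6.26 and 6.67 on the LPS arrays. The groups overlapped, with immature replicate 3 below all LPS arrays, and the difference of −0.19 ± 0.16 (SE, n = 4 per group; limma adjusted p = 0.328) did not pass. Without that array it was −0.33 ± 0.12 (limma adjusted p = 0.0415) and passed. It did not pass in the other 18 of 19 alternatives (adjusted p up to 0.65).

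Sdf2l1, a partner of the BiP co-chaperone Dnajb11, showed the greatest fall of the 34 genes. It read 4.01, 3.99, 3.11 and 3.99 on the immature arrays and 2.51, 2.61, 2.66 and 2.95 on the LPS arrays, a difference of −1.09 ± 0.21 (SE; limma adjusted p = 0.003). All LPS arrays lay below all immature arrays, of which replicate 3 was the lowest. Without immature replicate 3 the difference was −1.31 ± 0.11.

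Hsp90b1 encodes GRP94, the chaperone that integrins and most Toll-like receptors need. It gave 6.36, 6.34, 5.99 and 6.35 in immature cells and 5.83, 5.98, 5.65 and 6.10 after LPS, where the ranges overlapped through immature replicate 3 and LPS replicate 4. The fall of 0.37 ± 0.13 (SE; difference −0.37, limma adjusted p = 0.0366) did not pass when any array other than immature replicate 3 or LPS replicate 4 was left out (adjusted p from 0.0548 to 0.0893). Canx encodes calnexin, the membrane-bound lectin chaperone of glycoproteins. Its values were 5.40, 5.44, 5.34 and 5.34 before and 5.03, 5.15, 5.16 and 5.20 after LPS, without overlap, and the difference of −0.24 ± 0.07 (SE; limma adjusted p = 0.0158) was lost without LPS replicate 1 (adjusted p = 0.0518). Dnajc3 encodes p58IPK, a BiP co-chaperone that also inhibits PERK. Its signals of 2.21, 2.36, 1.78 and 2.17 in immature cells and 1.59, 1.71, 1.53 and 1.86 after LPS overlapped only where immature replicate 3 lay below LPS replicate 4. The difference was −0.46 ± 0.13 (SE; limma adjusted p = 0.0192), and it did not pass without immature replicate 1 or 2 or LPS replicate 1 or 3 (adjusted p from 0.0503 to 0.0523).

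The other chaperones did not pass. Creld2, an ER stress-induced secreted protein, read 5.55, 5.58, 4.61 and 5.53 in immature cells and 4.59, 4.72, 4.75 and 5.09 after LPS. Immature replicate 3 alone lay among the LPS arrays, the difference was −0.53 ± 0.23 (SE; limma adjusted p = 0.0781), and without that array it was −0.77 ± 0.12 (adjusted p = 0.00122). It also passed with median scaling (−0.70, adjusted p = 0.0331), without scaling (−0.74, adjusted p = 0.0281) and with quantile normalization (−0.59, adjusted p = 0.0453). In the other 15 of 19 alternatives Creld2 did not pass (adjusted p up to 0.285). Manf, another secreted protein induced by ER stress, followed the same arrangement with 3.68, 3.72, 2.95 and 3.58 against 2.93, 3.13, 3.01 and 3.42, a difference of −0.36 ± 0.19 (adjusted p = 0.132) and −0.54 ± 0.12 without immature replicate 3 (adjusted p = 0.00742). Manf passed with median scaling (−0.54, adjusted p = 0.0498) and without scaling (−0.57, adjusted p = 0.0405) as well. It did not pass in the other 16 of 19 alternatives (adjusted p up to 0.391). Calr encodes calreticulin, the soluble relative of calnexin. It gave 5.49, 5.50, 4.93 and 5.49 before and 5.28, 5.34, 5.35 and 5.84 after LPS, so that the lowest and the highest array were immature replicate 3 and LPS replicate 4 and the difference was 0.10 ± 0.17 (adjusted p = 0.661). The BiP co-chaperone Dnajb11 (−0.07 ± 0.14, adjusted p = 0.687) and the BiP nucleotide exchange factor Hyou1 (−0.15 ± 0.21, adjusted p = 0.573) overlapped between the groups. Dnajb9 encodes ERdj4, a co-chaperone that helps BiP hold IRE1 alpha silent. It was the single chaperone whose LPS arrays (1.72, 1.80, 1.84 and 1.98) all lay above its immature arrays (1.69, 1.68, 1.70 and 1.64), by 0.16 ± 0.07 (SE), and it did not pass (limma adjusted p = 0.102).

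Protein disulfide isomerases form and shuffle the disulfide bonds of folding proteins, and 0 of the 4 passed (limma, also 0 at an unadjusted p under 0.05). Over all tested genes 31.4% rose and 24.7% fell. Pdia3, which works with calnexin and calreticulin and in the loading of MHC class I, differed by 0.10 ± 0.12 (SE; adjusted p = 0.536), and P4hb, the founding isomerase, by −0.03 ± 0.11 (adjusted p = 0.826). Pdia4 was 2.10, 2.22, 1.53 and 2.22 in immature cells and 1.75, 1.98, 2.19 and 2.66 after LPS, spanning a wider range inside each group than between their means (difference 0.13 ± 0.22, adjusted p = 0.656). Pdia6, which also acts on IRE1 alpha, read 7.04, 7.11, 6.61 and 7.16 and then 6.40, 6.49, 6.62 and 7.01. Immature replicate 3 lay below LPS replicates 3 and 4, and the difference of −0.35 ± 0.17 (adjusted p = 0.104) did not pass. Nor did it in 15 of 19 alternatives (adjusted p up to 0.347). It passed when immature replicate 3 was left out (−0.47 ± 0.15, adjusted p = 0.0255), when LPS replicate 4 was (−0.48 ± 0.15, adjusted p = 0.0284), with median scaling (−0.53, adjusted p = 0.0308) and without scaling (−0.56, adjusted p = 0.0265).

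The 3 sensors did not move together: Ern1 rose and Eif2ak3 and Atf6 fell. Ern1 encodes IRE1 alpha, the kinase and RNase that splices Xbp1. It read −0.23, −0.19, 0.22 and −0.08 in immature cells and 0.98, 1.01, 1.11 and 0.97 after LPS, a difference of 1.09 ± 0.11 (SE; limma adjusted p = 8.0e-05). The LPS arrays lay close together and all above the immature arrays, of which replicate 3 was the highest. Eif2ak3 encodes PERK, the kinase that slows translation. It read 1.70, 1.67, 1.85 and 1.74 before and 1.43, 1.53, 1.48 and 1.28 after LPS, without overlap (difference −0.31 ± 0.08, limma adjusted p = 0.0111). Atf6, the sensor that becomes a transcription factor, gave −0.88, −0.85, −0.66 and −1.03 and then −1.39, −0.94, −1.38 and −1.44. LPS replicate 2 lay inside the immature range, and the difference of −0.43 ± 0.13 (limma adjusted p = 0.0238; −0.28 with normexp background correction, adjusted p = 0.0458) did not pass without immature replicate 2 or LPS replicate 1, 3 or 4 (adjusted p from 0.0517 to 0.0638).

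Among the downstream factors Ddit3 and Atf4 rose, and Xbp1 and Trib3 did not pass. Ddit3 encodes CHOP, a transcription factor of prolonged stress linked to cell death. Its signal was 0.09, 0.04, 0.58 and −0.04 on the immature arrays and 1.69, 1.72, 1.76 and 1.51 on the LPS arrays. This was the greatest rise of the 34 genes (1.51 ± 0.14 log2, SE; limma adjusted p = 5.7e-05), with no overlap and with immature replicate 3 again nearest to the LPS arrays. Atf4 encodes the factor whose translation rises when PERK or its relatives are active. Its mRNA read 7.0, 7.05, 7.20 and 7.05 before and 7.21, 7.29, 7.49 and 7.56 after LPS. The groups did not overlap, although immature replicate 3 came almost level with LPS replicate 1, and the difference was 0.31 ± 0.10 (limma adjusted p = 0.0263). That call was lost in 10 of 19 alternatives: with arrays scaled to their median (difference 0.14, adjusted p = 0.288), without scaling (0.11, adjusted p = 0.424), with scaling to probes detected on all arrays (0.26, adjusted p = 0.0722), with the mean of its probes (0.25, adjusted p = 0.0726), with replicates 1 and 2 averaged (adjusted p = 0.0608), and without immature replicate 1, 2 or 4 or LPS replicate 3 or 4 (adjusted p from 0.0612 to 0.0688).

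Xbp1 gave 7.43, 7.37, 7.18 and 7.33 in immature cells and 6.84, 6.73, 7.28 and 7.12 after LPS. LPS replicate 3 lay inside the immature range and the other LPS arrays below it, and the difference of −0.33 ± 0.13 (SE; limma adjusted p = 0.0574) did not pass. It passed without LPS replicate 3 (−0.43, adjusted p = 0.0189) or immature replicate 3 (−0.38, adjusted p = 0.046), with median scaling (−0.51, adjusted p = 0.013), without scaling (−0.54, adjusted p = 0.0105), with scaling to probes detected on all arrays (−0.38, adjusted p = 0.0406) and with a variance trend (adjusted p = 0.038). In the other 13 of 19 alternatives Xbp1 did not pass (adjusted p up to 0.244). The spliced form of the mRNA was not analysed here. Trib3, a pseudokinase induced by ATF4 and CHOP, varied most of the 34 genes among immature arrays, with 0.96, 1.13, 3.51 and 2.28, and read 2.05, 2.54, 2.67 and 3.20 after LPS. Immature replicate 3 was the highest of all 8 arrays, and the difference of 0.65 ± 0.54 (adjusted p = 0.339) became 1.16 ± 0.38 without it (adjusted p = 0.0305). In the other 18 of 19 alternatives Trib3 did not pass (adjusted p up to 0.654).

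**Figure D2:**
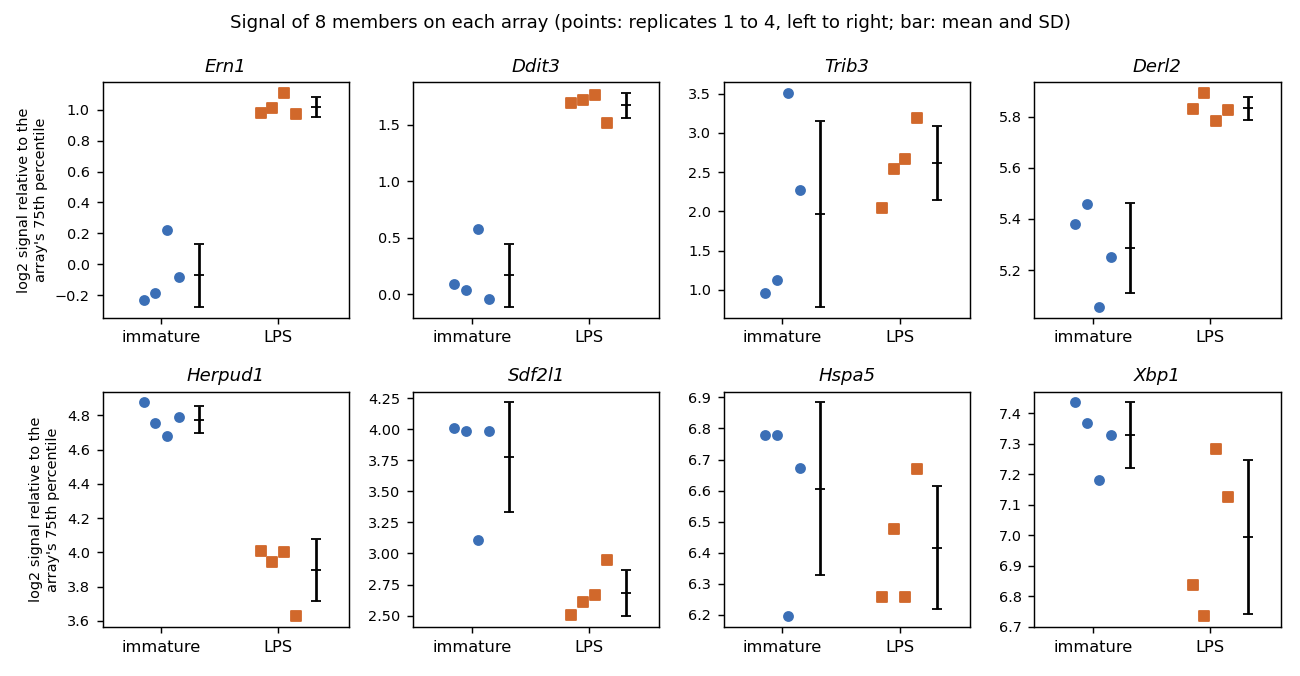
Log2 signal relative to the array's 75th percentile (y axis, its own range in each panel) for Ern1, Ddit3, Trib3, Derl2, Herpud1, Sdf2l1, Hspa5 and Xbp1; points are the 4 immature and the 4 LPS arrays, and each bar is the group mean with its SD (n = 4). Ern1, Ddit3 and Derl2 are higher on every LPS array and Herpud1 and Sdf2l1 lower, whereas the groups overlap for Trib3, Hspa5 and Xbp1.

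Of 8 ERAD genes 3 rose (37.5%, Edem1, Derl2 and Os9), 2 fell (25%, Herpud1 and Sel1l) and 3 did not pass. These shares were near the 31.4% and 24.7% of all tested genes, and the median difference was 0.00. Herpud1 encodes a membrane protein that assembles the degradation complex around the ubiquitin ligase HRD1. It was 4.88, 4.76, 4.68 and 4.79 in immature cells and 4.01, 3.94, 4.0 and 3.63 after LPS. The gap between the groups was wider than the range of either, and the difference was −0.88 ± 0.10 (SE; limma adjusted p = 0.00018). Sel1l, the adaptor of HRD1, read 2.14, 2.19, 1.76 and 1.93 and then 1.65, 1.67, 1.57 and 1.55, again without overlap (−0.39 ± 0.11, adjusted p = 0.0128). Syvn1, which encodes HRD1 itself, differed by 0.03 ± 0.11 (adjusted p = 0.827), so that the ligase did not pass while both of these partners fell.

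Derl2 encodes one of the derlins, membrane proteins of the channel that carries misfolded proteins out. It read 5.38, 5.46, 5.06 and 5.25 in immature cells and 5.83, 5.89, 5.78 and 5.83 after LPS, all above, and rose by 0.55 ± 0.10 (SE; limma adjusted p = 0.00161). Its relatives Derl1 (−0.03 ± 0.07, adjusted p = 0.766) and Derl3 (−0.39 ± 0.39, adjusted p = 0.411) did not pass. Os9, a lectin that delivers misfolded glycoproteins to HRD1, gave 4.71, 4.60, 4.78 and 4.52 before and 5.00, 5.01, 5.07 and 5.11 after LPS. The groups did not overlap and the difference was 0.40 ± 0.08 (adjusted p = 0.00325), lost with median scaling (0.22, adjusted p = 0.0772) and without scaling (0.19, adjusted p = 0.132). Edem1, which marks glycoproteins for disposal by trimming mannose, read 3.27, 3.21, 3.15 and 3.24 and then 3.74, 3.82, 3.43 and 3.39. All LPS arrays were higher, replicates 1 and 2 most, and the difference of 0.38 ± 0.11 (adjusted p = 0.019) did not pass without LPS replicate 1 (0.33, adjusted p = 0.0559), with median scaling (0.20, adjusted p = 0.192) or without scaling (0.17, adjusted p = 0.256).

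The translocon genes fell in 3 of 4 cases (75%, where 24.7% of all tested genes fell), with a median difference of −0.32. Sec61b, the beta subunit of the channel, was 8.10, 8.06, 8.14 and 8.15 in immature cells and 7.84, 7.82, 7.75 and 7.51 after LPS. Its immature arrays were tightly grouped, all LPS arrays lay below them and the difference was −0.38 ± 0.09 (SE; limma adjusted p = 0.0063). Sec61a1, the pore-forming subunit, gave 5.56, 5.61, 5.29 and 5.43 and then 5.19, 5.26, 5.20 and 5.20, without overlap. Its difference of −0.26 ± 0.09 (adjusted p = 0.0302) did not pass when any array other than immature replicate 3 was left out (adjusted p from 0.0513 to 0.0823). Ssr1, a subunit of the translocon-associated complex that helps some signal sequences enter, read 5.34, 5.36, 4.83 and 5.23 before and 4.69, 4.77, 4.79 and 4.94 after LPS. Only immature replicate 3 lay among the LPS arrays, and the difference of −0.39 ± 0.13 (adjusted p = 0.029) did not pass without immature replicate 1, 2 or 4 or LPS replicate 1, 2 or 3 (adjusted p from 0.0607 to 0.0772). The gamma subunit gene Sec61g differed by 0.08 ± 0.07 (adjusted p = 0.34) and did not pass.

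**Figure D3:**
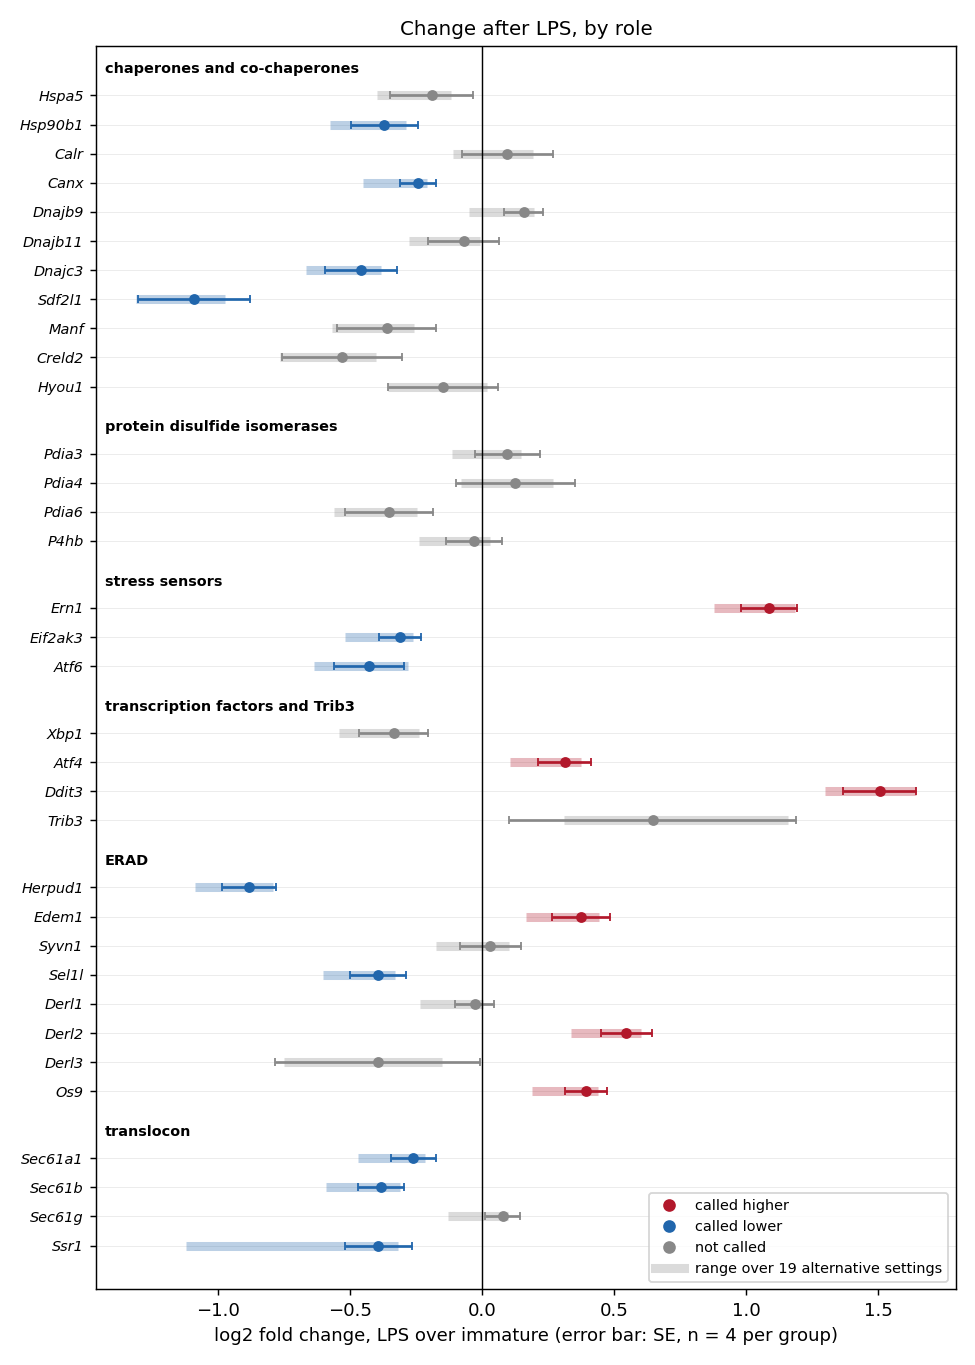
Log2 difference between LPS and immature arrays (x axis) for the 34 genes by role; points are the fitted values, bars the SE (n = 4 per group), colours the call, and pale bands the range over 19 alternative settings. Ern1 and Ddit3 lie at 1.09 and 1.51 and Sdf2l1 and Herpud1 at −1.09 and −0.88, and the isomerases lie near 0 apart from Pdia6 at −0.35.

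Of the 34 genes 8 had more than 1 probe, and the values above are those of the brightest. The probes of Derl2 differed by 0.55, 0.57 and 0.18, the third with overlap, and those of Sec61b by −0.38 and −0.26, both without overlap. For Ssr1 the brightest probe gave −0.39 and the dimmer ones −0.97 and −2.0 without overlap, so the size of its fall differs by probe. For Derl1 the brightest probe gave −0.03 and the other −0.34, where all LPS arrays were lower. The second probes of Atf4 (0.19), Dnajb9 (0.22) and Pdia6 (−0.14) had the sign of the first with overlapping groups. The second probe of Dnajb11, against another transcript, was well above background on 0 arrays.

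Within each group the chaperones and isomerases were low or high on the same arrays, a pattern noticed after their values were seen and given without a test. Immature replicate 3 was the lowest immature array for 14 of the 15 chaperones and isomerases and for 24 of the 34 genes, where it was the lowest for 40.1% of all tested genes. Its difference from the mean of the other 3 immature arrays had a median of −0.52 over the 15, −0.28 over the 34 and −0.02 over all tested genes. Creld2 (−0.94), Sdf2l1 (−0.88) and Manf (−0.71) were furthest below among the chaperones and Derl3 (−1.42) among the ERAD genes. In the same array the sensors Ern1 (0.39), Atf6 (0.26) and Eif2ak3 (0.14), and Atf4 (0.17), Ddit3 (0.55) and Trib3 (2.05, or 4.15-fold) lay above the other immature arrays. Xbp1, grouped with these factors, lay below them (−0.20). Immature replicate 3 was the highest immature array for 9 of the 34 genes, where it was the highest for 35.2% of all tested genes. On this array all 9 genes with an ER stress element lay below the mean of the other 3 immature arrays (median −0.49). So did 12 of the 20 with a promoter window and no such element (median −0.11). Of all tested genes 52.5% lay below that mean. The carriers Calr, Canx, Creld2, Dnajc3, Hsp90b1, Hspa5 and Pdia6 are among the 15 chaperones and isomerases, so the count of carriers largely repeats the pattern above. Immature replicate 3 had the highest summed monocyte (927), macrophage (500.2) and eosinophil (194) signals of the immature arrays, and a neutrophil sum of 797 inside the range of the others; the part of these cells in the pattern was not tested.

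On the LPS side replicate 4 was the highest LPS array for 15 of the 15 chaperones and isomerases and for 23 of the 34 genes, where it was the highest for 29.9% of all tested genes. LPS replicate 1 was the lowest for 10 of the 15 and 18 of the 34, against 17.2% of all tested genes. LPS replicate 4 also had the lowest summed neutrophil (248) and eosinophil (34.3) signals of the 8 arrays, whose part in the pattern was not tested. Of the 9 genes with an ER stress element in their promoter window 0 rose (limma, also 0 at an unadjusted p under 0.05), 3 fell and 6 did not pass (median −0.35), and of the 20 with a window and no such element 6 rose, 6 fell and 8 did not pass (median 0.09). Over all tested genes 31.4% rose and 24.7% fell, and the difference between carriers and the others was not tested.

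**Figure D4:**
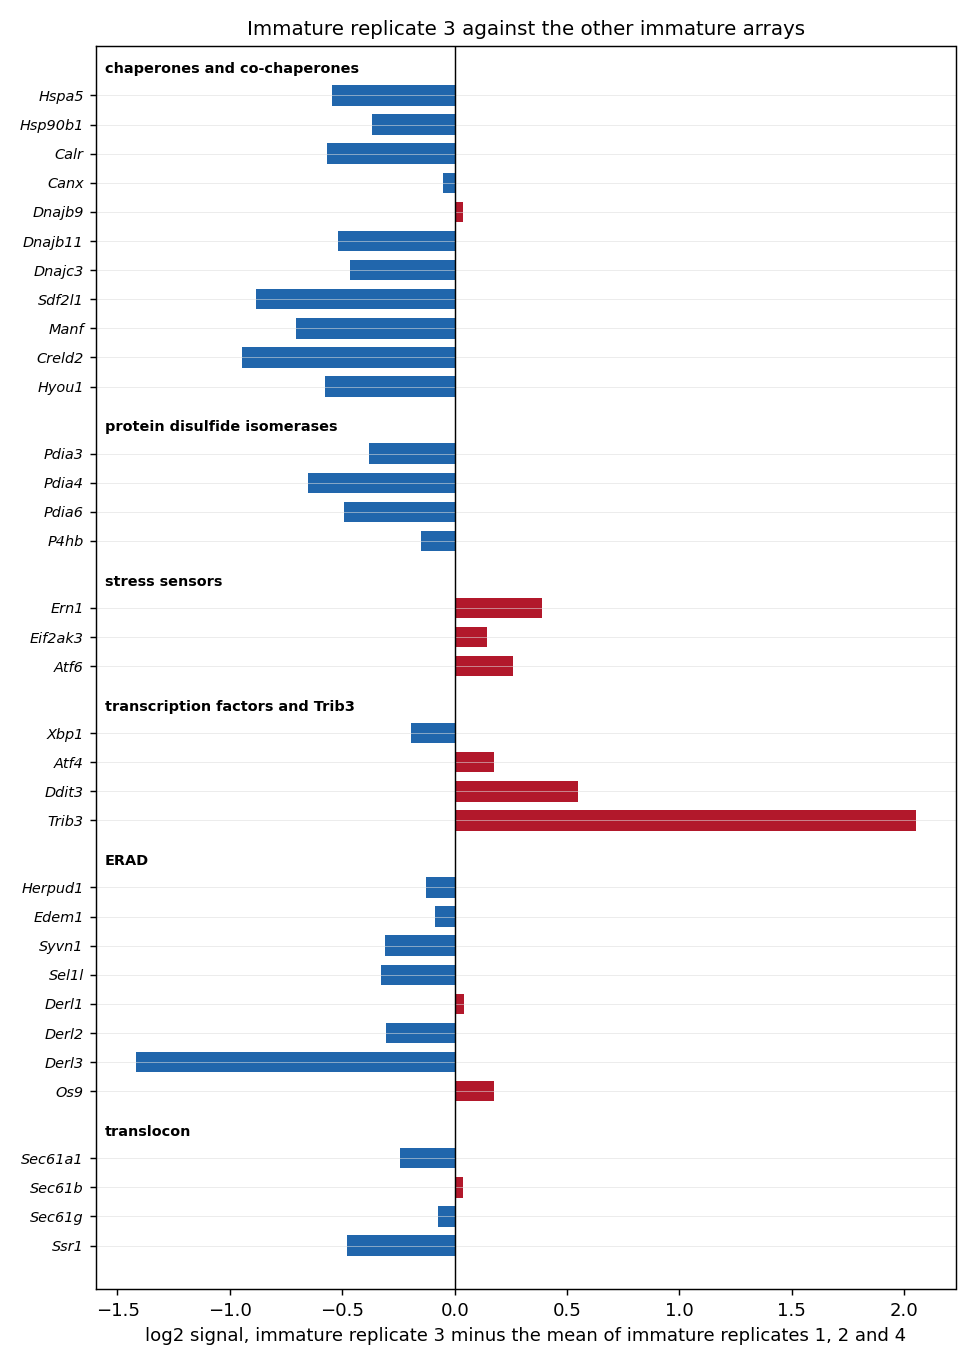
Log2 signal of immature replicate 3 minus the mean of immature replicates 1, 2 and 4 (x axis) for the 34 genes by role, 1 bar per gene and no error, since it is a single array. Chaperones and isomerases other than Dnajb9 lie below 0, as does Xbp1, and the sensors, Atf4, Ddit3 and Trib3 lie above it, with Trib3 at 2.05.

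Wider lists of ER and stress genes outside the 34 placed these values in context, each read against the 31.4% of all tested genes that rose and the 24.7% that fell. Of 26 other ERAD genes 15 rose (57.7%) and 2 fell (7.69%), among them the mannosidase-like Edem2 (0.92 ± 0.11, SE), the co-chaperone Dnajb12 (0.74) and Selenok (0.65), with the ubiquitin ligase gene Marchf6 lower (−0.40). Of 34 other folding helpers and enzymes 10 rose and 10 fell, with Dnajc1, a BiP co-chaperone, at 1.72 ± 0.06, Sdf2, the close relative of Sdf2l1, at 0.67, Txndc12 at 0.67 and the glucosidase gene Mogs at −1.0 ± 0.15. Sdf2 thus rose where Sdf2l1 fell. Of 41 further genes of translocation, signal peptidase and oligosaccharyltransferase 7 rose and 10 fell, with the oligosaccharyltransferase subunit Stt3b at −0.74, the signal peptidase subunit Spcs3 at −0.61, Tram1 at −0.53 and Sec61a2, the paralog of Sec61a1, at 0.58. Of 22 genes of ER exit and retrieval 5 rose and 3 fell, with Mcfd2 at 0.72, Tmed10 at 0.46, the COPII coat gene Sec23a at 0.45 (lost without scaling, adjusted p = 0.0639) and Kdelr3, a receptor that returns ER proteins, at −1.43, well above background on 1 of 4 LPS arrays and at −0.34 with normexp background correction. Tmed10 did not pass with the mean of its probes (adjusted p = 0.359).

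Of 14 tested relatives and processing enzymes of the sensors 5 rose and 0 fell (limma, also 0 at an unadjusted p under 0.05). They included Eif2ak2, the PERK relative PKR that responds to double-stranded RNA (1.18 ± 0.21, SE), Rtcb, the ligase that joins the Xbp1 exons cut by IRE1 alpha (0.28, lost with median scaling and without scaling, adjusted p up to 0.497), and Atf6b, which is lost in 12 of 19 alternatives (0.26, adjusted p up to 0.707). Of 25 targets of ATF4 and CHOP 13 rose (52%) and 6 fell (24%). The stress regulator Ddit4 rose by 2.20 ± 0.71, Nupr1 by 1.93 ± 0.20 and Ppp1r15a, the phosphatase subunit that reverses the PERK signal, by 1.77 ± 0.23. As Trib3 did, Ddit4 split the immature arrays (1.65, 1.96, 4.92 and 4.31 against 5.14, 5.54, 5.75 and 5.22 after LPS), and its call was lost without immature replicate 1 or 2 or any LPS array (adjusted p up to 0.109). The 6 that fell included Psat1 (−1.87 ± 0.15), Phgdh (−1.64) and Shmt2 (−1.20), enzymes of serine and glycine synthesis. The others were Aldh18a1 (−0.76) of proline synthesis, the amino acid transporter gene Slc7a5 (−1.83) and Stc2 (−1.23). All but Psat1 were named after their values were seen. Genes of amino acid transport or metabolism also rose: Slc7a11 (1.47), Slc3a2 (0.94), the partner of Slc7a5, and Mthfd2 (0.91), likewise named after their values were seen. Of 18 cytosolic and mitochondrial heat shock genes 7 rose, among them Dnajb4 (1.89), the inducible HSP70 gene Hspa1a (1.83) and the factor Hsf2 (1.56), which were 1.09, 0.99 and 1.43 with normexp background correction. The 3 that fell were Hspd1 (−0.67), a mitochondrial chaperonin, and, named after their values were seen, Hspa9 (−0.66) and Trap1 (−0.57), while the Hspd1 partner Hspe1 rose (0.39).

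**Figure D5:**
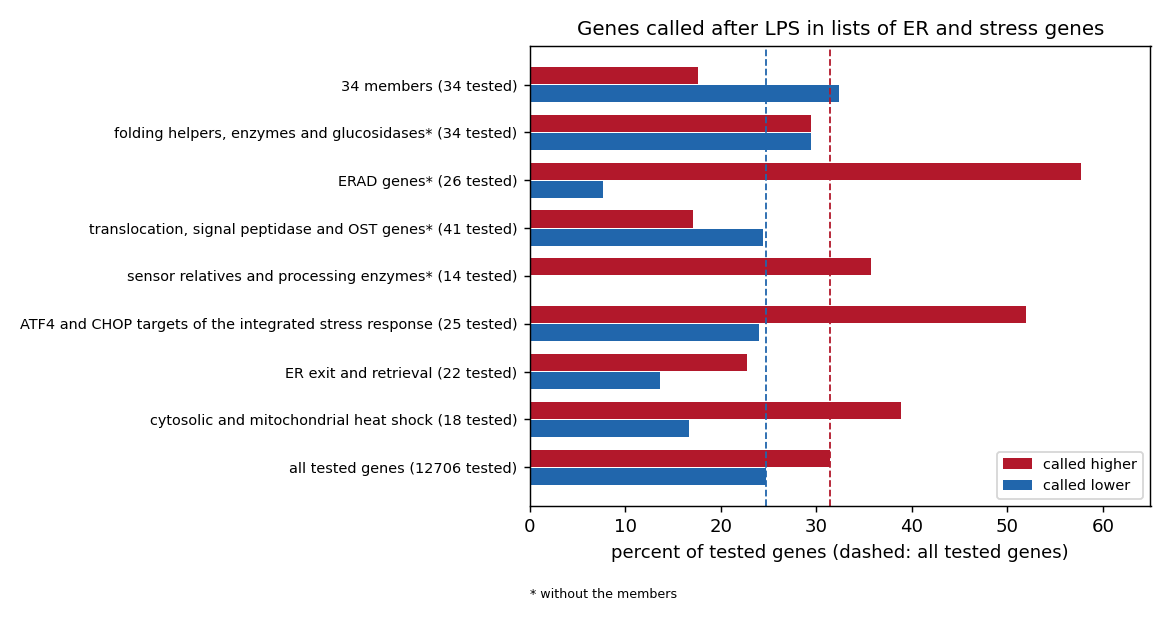
Percent of the tested genes of each list (x axis, from 0) that rose (red) or fell (blue) after LPS by limma at an adjusted p under 0.05; dashed lines are the shares over all 12706 tested genes. The 34 genes have 17.6% rising and 32.4% falling, and the other ERAD genes 57.7% and 7.69%.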

How the data were processed

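The authors' deposited files give, per the file headers, processed signal intensities of Agilent Feature Extraction (version 11.0.1.1 per the submitters' processing notes), background-subtracted and not scaled between arrays, with raw median intensities of spots and local background and other columns of flags. Spots flagged as outliers (122 to 206 per array) were left out. Log2 signals were averaged per probe and each array's 75th percentile subtracted. Probes were named by transcript accession through RefSeq's gene list (27509 of 55681 matched), and the brightest probe stood for a gene. A gene was tested if its probe was well above background throughout at least 1 group, with limma 3.58.1 (lmFit and eBayes, R 4.3.3), two-sided, Benjamini-Hochberg adjusted, called under 0.05. The number of arrays limits precision: the median SE was 0.12. The fit was tested on simulated data. The 34 genes are all named; each other list gives its 3 largest calls in its commoner direction and 1 in the other. Genes and lists were chosen with earlier results of these data known. Alternatives covered scaling, background, filters, probes, variance model, block and left-out arrays. Figures used matplotlib 3.10.9.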

Additional observations from a re-analysis of the deposited data

Results flagged for a closer look

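Dixon's test at its 95% critical value flagged a single array in 10 of the 68 gene and group combinations of the module. Such an array stood far from the rest of its group of 4. Chance flags about 1 in 20 where genes vary independently. The share over all tested genes was not computed, and several flags fall on the same array. The count therefore cannot be read as particular to the module. Immature replicate 3 was the low array for Hsp90b1 (5.99, the others 6.34 to 6.36), Calr (4.93, the others 5.49 to 5.50), Sdf2l1 (3.11, the others 3.99 to 4.01), Creld2 (4.61, the others 5.53 to 5.58) and Pdia3 (4.03, the others 4.39 to 4.43), all log2 signals relative to the array's 75th percentile. LPS replicate 4 was the high array for Calr (5.84, the others 5.28 to 5.35) and the low one for Herpud1 (3.63, the others 3.94 to 4.01). LPS replicate 2 was high for Atf6 (−0.94, the others −1.44 to −1.38) and for Sec61a1 (5.26, the others 5.19 to 5.20). Immature replicate 1 was low for Derl1 (3.55, the others 3.64 to 3.65).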

How the results depend on the processing

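Under 19 alternatives no called gene of the module changed direction, and 7 of the 17 called genes were called in all of them: Sdf2l1, Ern1, Eif2ak3, Ddit3, Herpud1, Derl2 and Sec61b. With arrays scaled to their median, 2615 of all genes rose in place of 3988 and 4169 fell in place of 3136, and 3 of the module rose in place of 6 and 15 fell in place of 11; without scaling these were 2428, 4445, 3 and 16. With no filter on dim probes 7628 genes rose, 20887 being tested. With replicates 1 and 2 of each group averaged and counted as 1 sample, since they differed least (spread of log2 differences 0.09 among immature and 0.11 among LPS arrays, against 0.08 from repeated spots), 5 of the module fell in place of 11. Over all tested genes 18.7% then fell, in place of 24.7%. Leaving out each array in turn gave 5 to 16 of the module that fell, against 21.5% to 28.0% of all tested genes. The correlation of deviations was −0.10 to 0.19 for the same replicate number and −0.16 to 0.27 for different numbers. These values cannot show whether the samples were paired. With a replicate block 6 of the module rose and 9 fell, the calls of Canx and Sec61a1 being lost (adjusted p = 0.0521 and 0.0522). Averaging replicates 1 and 2 also ended the call of Sel1l (adjusted p = 0.0635). Naming probes by accession alone was not run as a separate alternative, being the naming used throughout. The cause of these changes was not tested. With normexp background correction dim genes moved most: Derl3 went from −0.39 to −0.15, Hyou1 from −0.15 to 0.02 and Atf6, alone among the 17 called moved by over 1.5 times, from −0.43 to −0.28. The median of the 34 genes lay 0.23 below that of all genes, and from 0.13 (replicates averaged) to 0.43 (no filter) below it over the alternatives.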
